A study of Mus musculus with 12 samples.

Results

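The Frizzled receptors are the family of cell surface proteins through which cells receive WNT signals. All 10 mouse genes, Fzd1 to Fzd10, were taken by symbol, and every probe set that the platform annotation ties to exactly 1 of them was used, which gave 26 of the 45037 probe sets on the array. Fzd9 had 1 probe set and the other 9 genes had 2 to 6. The family was selected on its log2 values in this same comparison, so the differences of its members between the fractions are described here without a test. Keratinocytes from mouse skin, strain C57 DBA in the labels, had been sorted with magnetic beads into CD34+ and CD34- fractions. CD34 is a glycoprotein on the surface of cells of the bulge, the part of the hair follicle where slow-cycling stem cells reside, and the CD34- fraction holds the remaining cells. No age, sex or treatment is given in the labels. Each fraction came from 3 isolations, each a pool of 6 or more mice, and each RNA was placed on 2 Affymetrix mouse expression arrays, so that 6 CD34+ and 6 CD34- arrays were measured. Which arrays carry the same RNA cannot be read from their titles, and n = 6 below means 6 arrays from 3 RNA samples.

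A Frizzled protein crosses the membrane several times and binds a WNT ligand with a cysteine-rich domain outside the cell. With the co-receptors Lrp5 or Lrp6 it recruits dishevelled and stabilises beta-catenin, and with other partners it directs planar cell polarity, the alignment of cells and hairs in the plane of the skin. In the hair follicle, beta-catenin signalling is known for its part in the start of hair growth. The amount of Frizzled on the surface is held down by the ubiquitin ligases Rnf43 and Znrf3, and R-spondins with their Lgr receptors counter these ligases.

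Cd34 itself read 10.15 ± 0.55 in the CD34+ and 3.23 ± 0.30 in the CD34- fraction on the log2 scale (SD, n = 6). This was a 121-fold difference. All 12 bulge markers tested were higher in CD34+ cells (limma, adjusted p under 0.05), against 7.99% of the 18193 genes. The marker lists were chosen with earlier results of these data known. Krt15, counted here in the keratinocyte list, read 13.24 ± 0.20 in CD34+ and 13.52 ± 0.21 in CD34- arrays and was not called. Keratinocyte markers were high in both fractions, with Krt14 at 11.83 ± 0.62 in CD34+ and 13.20 ± 0.25 in CD34- arrays. CD34+ arrays 1, 3 and 5 stood apart by a narrower spread over probe sets, with an SD of 1.92 to 2.07 against 2.19 to 2.32 on the other 9 arrays. The 3' minus 5' difference of the Actb control probe sets, a measure of RNA quality, was 4.54 ± 0.66 in the CD34+ fraction and 2.48 ± 0.49 in the CD34- fraction on the log2 scale (n = 6, two-sided exact permutation test, p = 0.00216, the smallest that 924 splits can give). The splits treat arrays that share RNA as separate, and with 3 RNA samples a fraction there would be 20 splits and no p below 0.1. For Gapdh the 3' minus 5' difference was 4.01 ± 0.36 in CD34+ and 3.41 ± 0.16 in CD34- arrays. The part of RNA quality in the results was not tested. The main differences are given with and without CD34+ arrays 1, 3 and 5, the arrays of narrower spread. This does not address RNA quality, since the Actb difference was 3.98 to 4.68 in these arrays and 3.95 to 5.65 in CD34+ arrays 2, 4 and 6. For the marker counts that follow, limma called 7.99% of all genes higher and 18.1% lower in CD34+ cells. Of keratinocyte genes 5 of 9 were lower and 0 higher by limma, with 0 higher also at an unadjusted p under 0.05. Of the markers of other cells, 9 of 9 T cell genes were lower in CD34+ cells, as were 5 of 12 Langerhans and myeloid genes with 1 higher. Of dermal fibroblast genes 7 of 15 were higher and 1 lower, of smooth muscle and pericyte genes 3 of 8 were higher, and of endothelial genes 1 of 12 was higher. Melanocyte genes had 2 of 9 higher, Mitf and Sox10, and 1 lower, Tyrp1. Schwann cell genes had 2 of 5 higher and 2 lower, and none of the 5 adipocyte genes passed by limma, with 0 at an unadjusted p under 0.05.

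Within the family, Fzd2, Fzd3, Fzd7 and Fzd1 were clearly higher in CD34+ cells, Fzd6 was lower, and the leading probe sets of Fzd8 and Fzd10 differed by less than the spread between arrays. Of the 26 probe sets 24 had a higher mean in CD34+ arrays and 2 a lower one, with a median log2 difference of 0.32 against 0.06 over all probe sets. The arrays of the fractions did not overlap for 8 of the 26, all higher in CD34+ cells, where 4.00% of all probe sets were higher without overlap and 6.86% lower. These 8 belonged to 6 genes, with 3 from Fzd2 and 1 each from Fzd1, Fzd3, Fzd4, Fzd7 and Fzd9. With 1 probe set per gene, the one with the highest mean, the median difference of the 10 receptors was 0.59 against 0.04 over all genes, and 5 of the 10 were higher and 0 lower without overlap against 4.17% and 8.77% of all genes. After a further quantile normalization 8 probe sets were higher and 0 lower (4.73% and 6.25% of all probe sets), with 1450135_at of Fzd3 in place of 1419301_at of Fzd4, and after median centring 5 were higher, of Fzd2, Fzd3 and Fzd7, and 1 of Fzd6 lower (2.19% and 8.70%). Without CD34+ arrays 1, 3 and 5 they were 11 and 1 (8.87% and 8.65%), and with means of arrays 1-2, 3-4 and 5-6 they were 18 and 1 (25.4% and 20.3%). In RNA from sorted cells, fewer cells of a type and less RNA per cell cannot be told apart. The value of a probe set depends on its own probes, so levels are compared between fractions within a probe set and not between receptors.

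**Figure D1:**
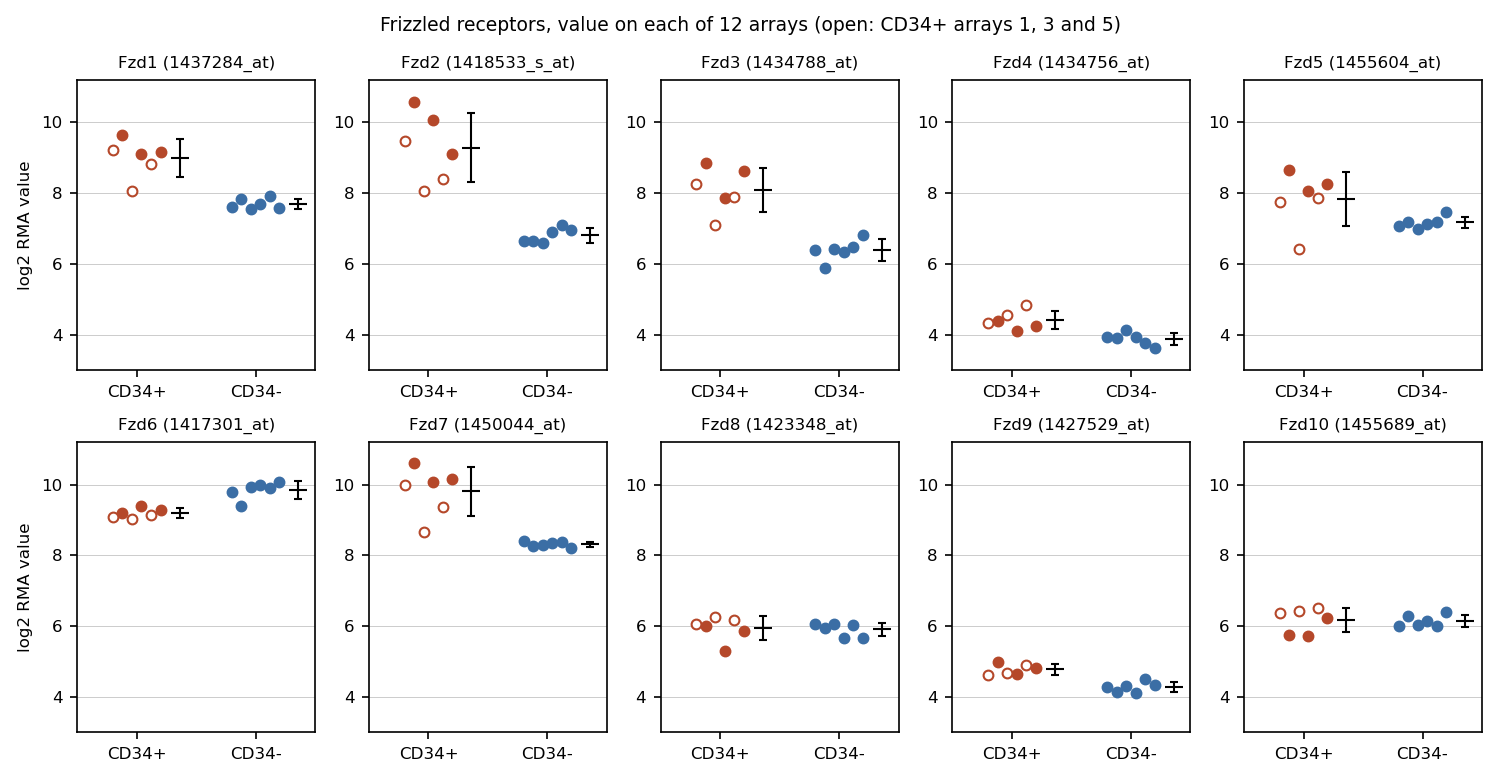
Log2 RMA value (vertical axis) of the highest-mean probe set of each Frizzled gene on 6 CD34+ (red) and 6 CD34- (blue) arrays, with the mean and SD in black and CD34+ arrays 1, 3 and 5 as open points. Fzd1, Fzd2, Fzd3, Fzd7 and Fzd9 are separate between fractions, and Fzd6 is lower in CD34+ arrays with an overlap of 0.01.

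Fzd1, Fzd2 and Fzd7 form the subfamily of most similar sequence and are receptors of both the beta-catenin and the polarity branch. Fzd2 had the largest difference of the family. Its probe set 1418534_at ran from 8.69 over a median of 9.17 to 10.60 in CD34+ arrays and from 5.67 over 5.89 to 6.10 in CD34- arrays. Every CD34+ array lay 2.59 or more above the highest CD34- array, and the means differed by 3.59, or 12.1-fold. The probe set 1418533_s_at read 8.05, 9.30 and 10.58 (lowest, median, highest) in CD34+ and 6.59, 6.78 and 7.09 in CD34- arrays, a difference of 2.48. The annotation ties the probe set 1418532_at to the same source sequence as the other 2, though not necessarily to the same stretch of it. This probe set read 7.53, 8.44 and 9.39 against 6.13, 6.47 and 6.87, a difference of 1.91. The 3 probe sets thus ran the same way with differences that were unequal in size, and within the fractions their arrays deviated together (Pearson r of deviations from the fraction means 0.72 to 0.96 over 12 arrays that share RNA). The suffix _s_at marks a probe set that may match further transcripts. Without CD34+ arrays 1, 3 and 5 the differences were 3.76, 3.12 and 2.37.

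Fzd7, a receptor known from stem cells of other epithelia, read 8.65, 10.03 and 10.61 in CD34+ and 8.20, 8.33 and 8.41 in CD34- arrays by 1450044_at. The groups did not overlap, and array 3 was the lowest CD34+ array by 0.72 below array 5. The CD34- arrays agreed within an SD of 0.08, against 0.69 in CD34+ arrays. The difference was 1.49, or 2.81-fold, and 1.97 without CD34+ arrays 1, 3 and 5. The other Fzd7 probe set, 1450043_at, has the same source sequence in the annotation, though not necessarily the same stretch of it. This probe set read between 4.13 and 4.84 on all arrays and overlapped between fractions, with a difference of 0.23. Within the fractions the pair deviated in opposite directions (r = -0.54 over 12 arrays).

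Fzd1 read 8.06, 9.13 and 9.64 in CD34+ and 7.55, 7.65 and 7.91 in CD34- arrays by 1437284_at. Here too CD34+ array 3 was the lowest, 0.14 above the highest CD34- array, and the groups did not overlap. The means differed by 1.30, or 2.46-fold, and by 1.60 without the 3 arrays. The other probe set of Fzd1, 1422985_at, read between 2.74 and 3.54 on the 12 arrays, near the Trpn controls that mark the low end of the scale at 2.31 to 2.95, and overlapped (difference 0.18).

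Promoter sequence from the RefSeq-derived table (build GRCm38.p6) was used for 6 of the 10 genes. The table held none for Fzd2, Fzd3 and Fzd6, and Fzd8 was not used. The promoters of Fzd1 and Fzd7 are shown, since Fzd2 and Fzd3, the other receptors with large differences, had no sequence there. Within the fractions Fzd1 and Fzd7 deviated together more closely than any other pair among Fzd1, Fzd2, Fzd3 and Fzd7 (r = 0.94 over 12 arrays). Both also went with the spread of the array over probe sets, Fzd1 at r = 0.76 and Fzd7 at 0.87. A shared control of these genes was not tested. Each sequence holds the 250 bases before the annotated start, 5′ to 3′ on the gene's strand, and capitals mark the core of the TCF/LEF motif, CTTTG on either strand. Fzd1 is from chr5:4758217-4758466 on the minus strand and Fzd7 from chr1:59481897-59482146 on the plus strand.
Fzd1: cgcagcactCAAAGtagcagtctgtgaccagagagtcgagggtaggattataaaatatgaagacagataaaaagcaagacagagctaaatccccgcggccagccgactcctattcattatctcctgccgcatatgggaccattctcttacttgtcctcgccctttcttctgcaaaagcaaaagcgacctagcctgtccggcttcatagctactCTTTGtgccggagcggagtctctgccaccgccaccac
Fzd7: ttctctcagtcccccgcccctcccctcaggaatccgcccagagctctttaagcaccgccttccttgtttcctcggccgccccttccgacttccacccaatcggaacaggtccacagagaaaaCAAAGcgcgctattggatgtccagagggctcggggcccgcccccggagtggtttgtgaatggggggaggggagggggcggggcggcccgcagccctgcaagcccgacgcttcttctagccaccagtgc

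In Fzd1 the core stands at positions -241 and -37 from the start, and in Fzd7 at position -128. Of the other windows, that of Fzd10 held 1 such core and those of Fzd4, Fzd5 and Fzd9 held 0. Among 32851 windows of the same length, 48.6% held 1 or more. The promoters differed in other letters. Fzd7 had 6 matches to the GC box GGGCGG on either strand, of which the last 2 share a base, and 2 to the CCAAT box, CCAAT on either strand. Fzd1 had 0 of both and 1 match to TATAAA at position -202, a motif found in 12.4% of all windows on either strand. The GC box was found in 32.7% and CCAAT in 33.8% of all windows. The GC content was 51.2% in Fzd1, 65.2% in Fzd7 and 72.8% to 76.4% in Fzd4, Fzd5, Fzd9 and Fzd10, against a median of 52.4%. Such a match is a description of the letters and not of a bound site.

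Fzd3 and Fzd6, the receptors best known from planar cell polarity and, for Fzd6, from the patterning of hairs, stood on opposite sides. Fzd3 read 7.11, 8.07 and 8.85 in CD34+ and 5.89, 6.41 and 6.83 in CD34- arrays by 1434788_at, without overlap. The difference was 1.70, or 3.25-fold, and 2.05 without CD34+ arrays 1, 3 and 5. Its probe set 1449730_s_at, which may match further transcripts, differed by 0.89 and 1450135_at by 0.81, both with overlap, the second by 0.02. The other 3 probe sets of Fzd3, 1421157_at, 1438101_at and 1420087_at, read between 2.66 and 4.65 and differed by 0.30, 0.34 and 0.12. All 6 were higher in CD34+ cells, with the size of the difference unequal between them.

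Over all 12 arrays Fzd6 was the 1 receptor whose leading probe set was lower in CD34+ cells. By 1417301_at it read 9.03, 9.18 and 9.40 in CD34+ and 9.39, 9.92 and 10.08 in CD34- arrays. The groups overlapped by 0.01, since CD34- array 2 at 9.39 lay beside CD34+ array 4 at 9.40, and the other 5 CD34- arrays lay above all CD34+ arrays. The difference was -0.65, or 1.57-fold, it was -0.55 without the 3 arrays and -0.37 after a further quantile normalization. The probe set 1448662_at, of the same source sequence in the annotation, read 4.07, 4.16 and 4.51 against 4.36, 4.49 and 4.77, a difference of -0.32. The third, 1458904_at, read between 3.27 and 3.69 on all arrays and differed the other way, by 0.19.

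Fzd5 and Fzd8, a pair of related receptors that signal through beta-catenin, overlapped between the fractions over all 12 arrays. Fzd5 read 6.43, 7.97 and 8.66 in CD34+ and 6.98, 7.16 and 7.47 in CD34- arrays by 1455604_at. CD34+ array 3 lay below every CD34- array while the other 5 CD34+ arrays lay above them. The difference of 0.66 therefore rested on which arrays were kept, and was 0.95 without CD34+ array 3 and 1.15 without CD34+ arrays 1, 3 and 5. The second probe set of Fzd5, 1422937_at, read between 2.84 and 3.82 and differed by 0.09, with a sign that turned after quantile normalization, after median centring and without the 3 arrays. Fzd8 read 5.30, 6.02 and 6.25 against 5.66, 6.00 and 6.07 by 1423348_at, a difference of 0.03 beside a pooled SD between arrays of 0.28, which turned to -0.07 after median centring and to -0.19 without the 3 arrays. Its other probe set, 1445815_at, differed by 0.22 beside a pooled SD of 0.20, with overlap on all arrays and none without the 3 arrays.

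Fzd4, Fzd9 and Fzd10 are related in sequence, and Fzd4 is also the receptor of Norrin in blood vessels. Fzd9 read 4.63, 4.75 and 5.00 in CD34+ and 4.11, 4.29 and 4.52 in CD34- arrays by 1427529_at, its 1 probe set. The groups were 0.11 apart, and the difference was 0.50, or 1.41-fold. Fzd4 read 3.50, 3.96 and 4.13 against 2.78, 3.00 and 3.36 by 1419301_at, without overlap and with a difference of 0.83. The groups overlapped after a further quantile normalization and after median centring, and CD34- arrays 3 and 4, at 2.94 and 2.78, lay within the Trpn range. By 1434756_at it read 4.11, 4.37 and 4.83 against 3.63, 3.92 and 4.14, an overlap of 0.04 and a difference of 0.53. The third, 1449416_at, from the same annotated source sequence as 1419301_at, read between 2.32 and 2.78, within the Trpn range, and differed by 0.15. Endothelial genes, which include known sites of Fzd4 expression, had summed levels of 7.76 to 8.21 in CD34+ and 7.63 to 7.75 in CD34- arrays (log2 of the sum over 12 genes), with Cdh5 in CD34- arrays and Tek and Emcn in both fractions within the Trpn range. Their part in the Fzd4 values was not tested. Fzd10 read 5.73, 6.31 and 6.51 against 6.01, 6.09 and 6.41 by 1455689_at, a difference of 0.02 that was -0.24 without the 3 arrays and -0.08 after median centring. Its other probe set, 1440182_at, had means within the Trpn range, 2.72 and 2.68, and differed by 0.05.

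**Figure D2:**
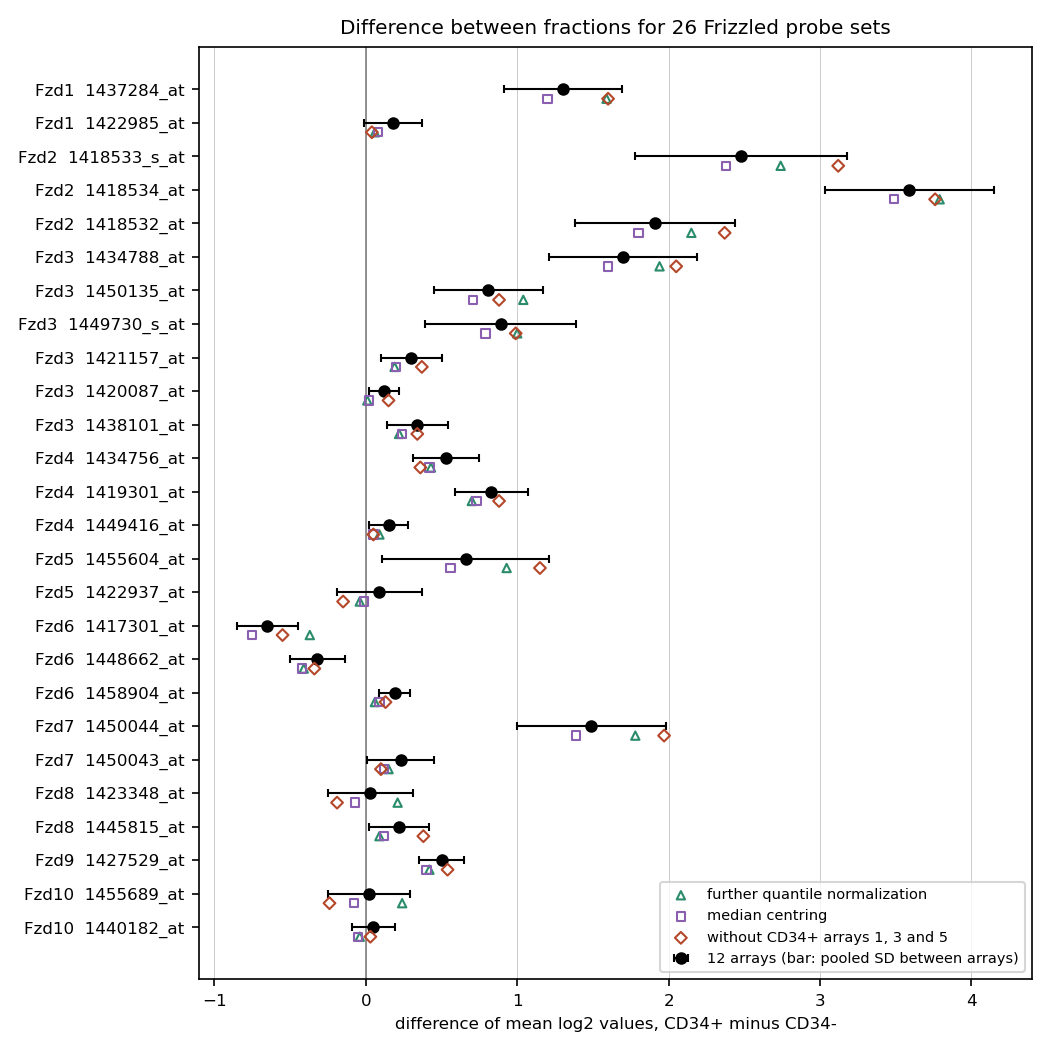
Difference of mean log2 values, CD34+ minus CD34- (horizontal axis), for each of the 26 Frizzled probe sets (rows), with bars for the pooled SD between arrays and coloured marks for a further quantile normalization, median centring and the values without CD34+ arrays 1, 3 and 5. Over all 12 arrays the 3 probe sets of Fzd2 lie between 1.91 and 3.59, and those of Fzd8 and Fzd10 between 0.02 and 0.22.

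The level of a probe set moved with the sign of these differences over the whole array. Of the 14 Frizzled probe sets with a mean under 5 on the log2 scale, 13 were higher in CD34+ arrays, with differences from -0.32 to 0.83 and a median of 0.20. Over all 27127 probe sets under that mean 76.8% were higher, with a median of 0.12. Of the 12 Frizzled probe sets with a mean of 5 or more, 11 were higher, with a median of 1.09, where 33.1% of all 17910 such probe sets were higher and the median was -0.23.

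The SD between arrays was larger in CD34+ arrays for 21 of the 26 Frizzled probe sets, which was also so for 81.1% of all probe sets. Fzd9, 1421157_at and 1420087_at of Fzd3, and 1417301_at and 1448662_at of Fzd6 had the larger SD in CD34- arrays. For the leading probe sets, deviations from the fraction means went with the spread of the array at r = 0.87 for Fzd2, 0.87 for Fzd7, 0.83 for Fzd5, 0.76 for Fzd1 and 0.75 for Fzd3 (Pearson, 12 arrays that share RNA), with r = 0.64 for Fzd6 and 0.27 for Fzd9, and with r = -0.64, -0.70 and -0.73 for Fzd4, Fzd8 and Fzd10. Among CD34+ arrays the narrowest, array 3, was thus the lowest for the first 5 receptors by these probe sets. With the Actb difference the r was 0.77 for Fzd3 and -0.30 to 0.54 for the other 9.

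The summed level of the fibroblast markers (log2 of the sum over 15 genes) was 10.52 to 12.37 in CD34+ and 10.30 to 11.09 in CD34- arrays, and Twist1 in CD34- arrays was the 1 marker within the Trpn range. It was 12.37, 12.32 and 11.54 in CD34+ arrays 1, 3 and 5 and 10.52 to 10.98 in arrays 2, 4 and 6, inside the range of the CD34- arrays. In these arrays Fzd2 by 1418533_s_at read 9.11 to 10.58, Fzd7 10.08 to 10.61 and Fzd1 9.10 to 9.64, against highest CD34- values of 7.09, 8.41 and 7.91. Within the fractions the r with the fibroblast level was -0.59 for Fzd2, -0.57 for Fzd7, -0.54 for Fzd1, -0.71 for Fzd5, -0.44 for Fzd3, -0.44 for Fzd6 and -0.28 for Fzd9. It was 0.57 for Fzd4, 0.72 for Fzd8 and 0.52 for Fzd10. Without CD34+ arrays 1, 3 and 5, 5 of the 15 fibroblast markers were still called higher and 1 lower. In that fit 1602 of 18193 genes were called higher and 1900 lower. The fibroblast genes of highest mean in CD34- arrays were Vim (8.64), Thy1 (8.63) and Mmp2 (8.59). Thy1, which is also in the T cell list, was the 1 fibroblast gene called lower over all 12 arrays. Of the 7 called higher, Col1a2 read 8.26 ± 0.46 against 5.11 ± 0.49 and Col5a2 7.65 ± 0.93 against 4.63 ± 0.38 (SD, n = 6). Smooth muscle and pericyte genes read 8.62 to 9.85 in CD34+ and 8.26 to 8.94 in CD34- arrays (log2 of the sum over 8 genes) with Myh11 in CD34- arrays within the Trpn range. Melanocyte genes read 10.04 to 11.06 against 8.57 to 8.93 (log2 of the sum over 9 genes), with Mitf at 10.15 ± 0.51 against 7.01 ± 0.25 and Dct at 6.46 ± 0.53 against 6.82 ± 0.30 (SD, n = 6). The part of these cells in the receptor values was not tested.

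**Figure D3:**
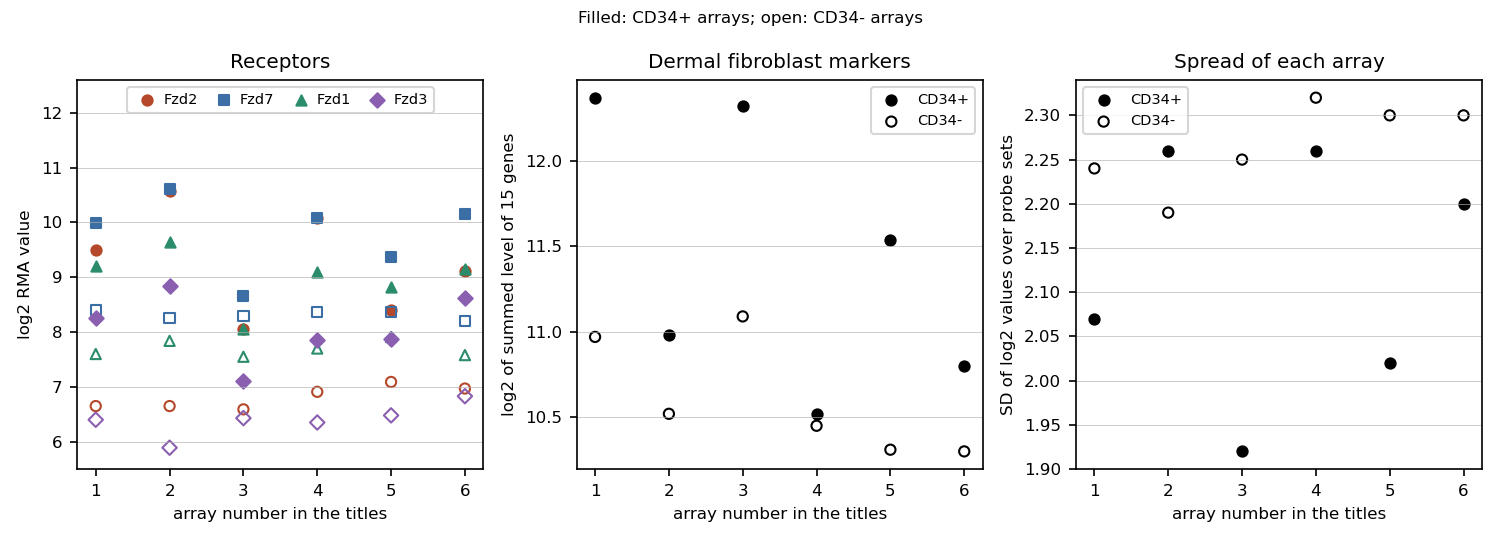
Log2 RMA values of 4 Frizzled receptors (left), log2 of the summed level of 15 dermal fibroblast markers (middle) and SD of log2 values over probe sets (right) against the array number in the titles, with filled points for CD34+ and open points for CD34- arrays. The fibroblast level is highest in CD34+ arrays 1 and 3, at 12.37 and 12.32, and Fzd2 is highest in CD34+ array 2, at 10.58.

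The genes most like each of the 4 receptors with the largest differences were found by Pearson r of deviations from the fraction means over the 12 arrays, among 9096 genes at or above the median level. For Fzd2 they were Smoc1 (r = 0.98), Rflnb (0.97) and Rnase4 (0.96), for Fzd3 Cdc42ep3, 2310061I04Rik and Snx6 (0.98 each), for Fzd7 Tspo, Clint1 and Glo1 (0.98 each), and for Fzd1 Capn2 (0.98), Nek3 (0.97) and Srd5a3 (0.97). The matrix protein gene Smoc1 (log2 fold change 1.83), Rflnb (2.17), Cdc42ep3 (2.01) and Capn2 (1.40) were called higher in CD34+ cells, and the other 8 were not called. These deviations share the RNA and the spread of each array, and the r values are a description of 12 arrays.

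Of the other genes of the pathway, 117 were tested in 8 lists by role, and 20 were called higher and 23 lower in CD34+ cells (limma, p adjusted by Benjamini-Hochberg across the 18193 genes and under 0.05), 17.1% and 19.7% of the lists against 7.99% and 18.1% of all genes. The split moved with the scaling, to 24 higher and 21 lower after quantile normalization and to 15 and 26 after median centring. The lists were chosen with earlier results known, and p-values treat arrays that share RNA as separate. Among proteins that act with WNT receptors at the membrane 3 of 12 rose and 1 fell. Lypd6 (0.98, SE 0.23), the receptor kinase Ror2 (0.79) and Reck (0.52), a partner for ligand choice, were higher. The Dickkopf receptor Kremen1 (-0.54) was lower. The co-receptors did not pass, Lrp6 at 7.28 ± 0.25 against 7.23 ± 0.31 (SD, n = 6, limma adjusted p = 0.787) and Lrp5 at 3.03 ± 0.21 against 3.06 ± 0.14, near the Trpn range.

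Genes that set the amount of Frizzled on the surface moved in both directions, 4 higher and 4 lower of 14. Both ligases that remove Frizzled fell, Rnf43 from 6.04 ± 0.27 to 4.84 ± 0.37 (log2 fold change -1.20, SE 0.18, limma adjusted p = 2.93e-04, n = 6) and Znrf3 from 8.33 ± 0.36 to 7.19 ± 0.54 (-1.15, SE 0.23, adjusted p = 0.00275). The fall of Znrf3 was -0.70 without CD34+ arrays 1, 3 and 5 (adjusted p = 0.0352). The R-spondin receptor Lgr5 (4.18), Shisa2 (4.81), of a family that holds Frizzled in the endoplasmic reticulum, and the endocytic adaptor Dab2 (3.01) rose, and the ligand Rspo3 fell by 2.02. The other two called, Lgr6 (-0.75) and Tmem59 (0.53, from a CD34- level within the Trpn range), lie outside the rule for naming and are given after their values were seen. They did not pass without CD34+ arrays 1, 3 and 5 (limma adjusted p = 0.0520 and 0.158).

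Outside the cell, 17 genes were listed for proteins taken to bind WNT or its receptors, a role that was not tested for any. Of these 4 rose, Dkk3 (3.49), Wif1 (3.33, from a CD34- level within the Trpn range), Trabd2b (2.60) and the Frizzled-related Sfrp1 (1.29). Apcdd1 fell (-0.89, named after its value was seen). Dkk3, like Lgr5 and Tcf7l1, is also among the bulge markers. Of 19 WNT ligands 8 fell, led by Wnt5a (-2.35), Wnt3 (-2.11), Wnt10a (-1.37) and Wnt7b (-1.03), and 0 rose by limma, with 5 higher at an unadjusted p under 0.05 and 0 to 3 called higher under the alternatives. Inside the cell, 5 of 14 genes of the dishevelled group rose and 1 fell, with Nkd1 (1.90), Dact1 (1.10) and Dvl1 (0.73) higher and Frat2 (-0.55) lower, while Dvl2 (0.00) and Dvl3 (0.11) did not pass. Another probe set of Dvl1 was at -0.21 and did not pass. In the list of destruction complex genes, beta-catenin and casein kinase 1 genes, 2 of 15 rose and 3 fell. The feedback gene Axin2 (-1.22), the casein kinase gene Csnk1g2 (-0.82) and Gsk3b (-0.76) were lower and Btrc (0.67) was higher. Ctnnb1, beta-catenin itself, was at 0.04 (limma adjusted p = 0.871). Of 14 TCF/LEF factors and co-regulators Tcf7l1 rose (0.89) and Tle3 (-0.76) and Ctnnbip1 (-0.31) fell. Of 12 planar polarity genes Celsr1 (-1.77), Prickle1 (-1.32) and Celsr2 (-0.70) fell and Invs (0.39) rose. Ctnnbip1 missed the threshold in 9 and Invs in 5 of the 12 fits that left out 1 array. Without CD34+ arrays 1, 3 and 5, Kremen1, Csnk1g2, Tle3, Ctnnbip1 and Invs did not pass, nor did Dact3, Frat1 and Apc2, which were called over all arrays at 0.40, 0.38 and 0.40 and are named after their values were seen. In that fit Reck (0.30), Wnt3 (-1.38), Gsk3b (-0.43) and Celsr1 (-1.10) passed with smaller values. Of the 33 named genes past the threshold 14 had further probe sets of which none passed (limma, p adjusted over all probe sets): Axin2, Btrc, Celsr2, Ctnnbip1, Dvl1, Gsk3b, Kremen1, Lypd6, Nkd1, Prickle1, Ror2, Rspo3, Tle3 and Wnt7b. Among these, the further probe sets differed by -0.01 for Axin2, 0.14 to 0.18 for Nkd1, 0.09 for Rspo3, 0.20 and 0.22 for Prickle1, and 0.02 and 0.13 for Kremen1. The further probe sets of Axin2, Nkd1, Rspo3, Prickle1 and Kremen1 had fraction means of 2.96 to 4.34, toward the low end of the scale. Those of Lypd6, Ror2, Wnt7b, Btrc and Tle3 had means of 2.64 to 5.48. Those of Celsr2, Ctnnbip1, Dvl1 and Gsk3b read higher, with means of 5.51 to 9.07, and did not pass either.

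**Figure D4:**
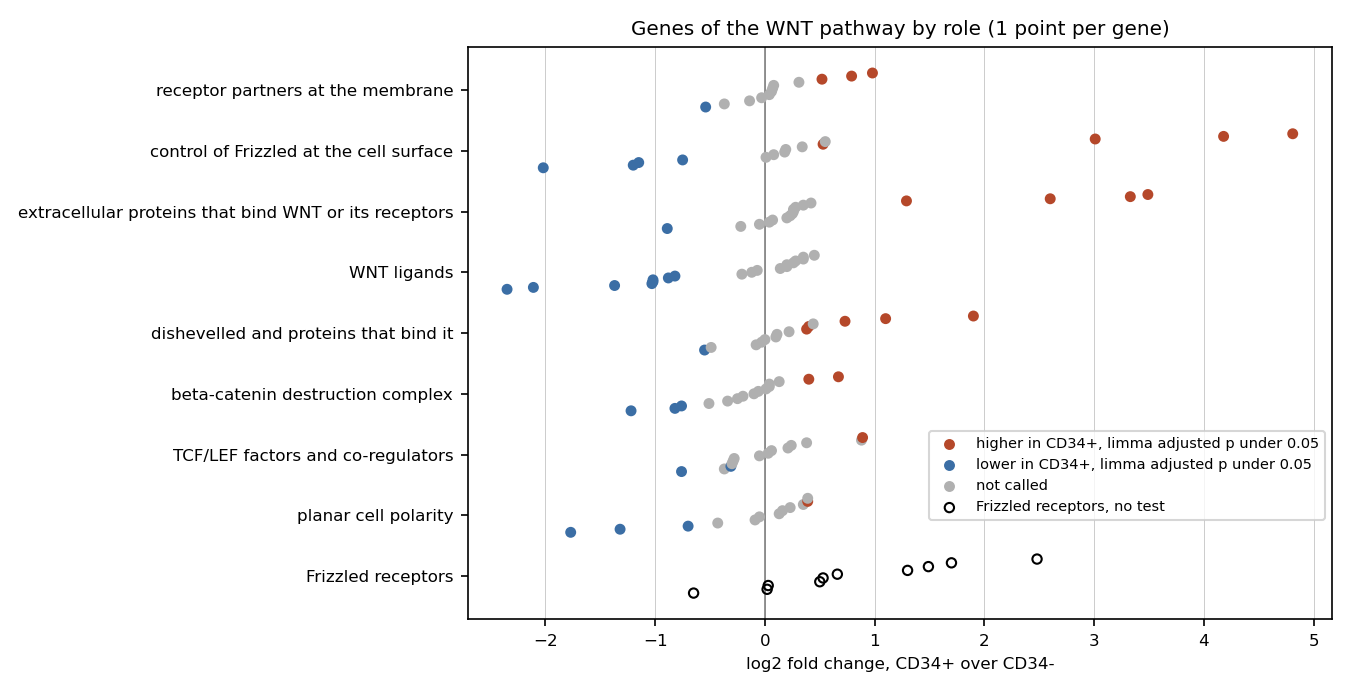
Log2 fold change, CD34+ over CD34- (horizontal axis), of 117 WNT pathway genes in 8 lists by role and of the 10 Frizzled receptors, 1 point per gene, with red and blue for genes called higher and lower by limma and open points for the receptors, which were not tested. Ligands lie at or below 0.45, and the receptors run from -0.65 to 2.48.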

How the data were processed

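RNA of 12 samples (6 CD34+ and 6 CD34- arrays) was measured on Affymetrix arrays. The values deposited by the authors are on the log2 scale, and the submitters' processing notes name RMA. The version, and whether all arrays were normalized together, are not given in the sources used here. RMA gives no detection call, so 3 Trpn control probe sets mark the low end. Of 45101 probe sets 64 controls were left out. The platform annotation in GEO ties 34945 of the rest to 1 gene, 932 to several and 9160 to none, and old symbols were replaced through RefSeq gene identifiers. Each of 18193 genes was tested by its probe set of highest mean.

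The fractions were tested against each other in limma 3.58.1 under R 4.3.3 (functions lmFit and eBayes). Tests were two-sided, with p adjusted by Benjamini-Hochberg and a threshold of 0.05. The number of arrays limits the precision. The receptors, the pathway lists and the marker lists (hair follicle bulge, keratinocyte, T cell, Langerhans and myeloid, dermal fibroblast, smooth muscle and pericyte, melanocyte, endothelial, adipocyte, Schwann cell) were chosen with earlier results of these data known. Named genes are all Frizzled probe sets, up to 4 called genes per pathway list by size, Lrp5, Lrp6, Rnf43, Znrf3, Dvl1 to Dvl3 and Ctnnb1, and the 3 genes most like each of 4 receptors. Alternatives were a further quantile normalization, median centring, means of arrays 1-2, 3-4 and 5-6, the array number as a block, a filter on dim probe sets, the probe set of highest variance, and leaving out arrays.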

Additional observations from a re-analysis of the deposited data

Results flagged for a closer look

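In 9 of 128 groups of 6 arrays, for 64 probe sets, 1 array stood far from the others, where chance gives about 1 in 20. For Fzd3 by 1438101_at CD34+ array 4 read 3.69 against 3.03 to 3.28 on the others. For Fzd5 by 1422937_at CD34+ array 4 read 2.84 against 3.46 to 3.82, and CD34- array 1 read 3.76 against 3.26 to 3.44. Both probe sets read below 4 on every array. Among partner genes, Ror2 read 4.76 in CD34+ array 2 (others 3.85 to 4.09), Dab2 4.62 in CD34- array 3 (3.80 to 4.00), Dvl1 9.35 in CD34- array 2 (10.08 to 10.43), Frat2 5.49 in CD34- array 4 (5.74 to 5.85), Rnf43 5.53 in CD34- array 6 (6.01 to 6.30) and Znrf3 9.02 in CD34- array 6 (7.98 to 8.33).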

How the results depend on the processing

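Without overlap, 8 Frizzled probe sets were higher and 0 lower (4.00% and 6.86% of all probe sets). After median centring 5 were higher and 1, of Fzd6, lower (2.19% and 8.70% of all), and those lost were the probe sets of Fzd1, Fzd4 and Fzd9. With means of arrays 1-2, 3-4 and 5-6, 18 were higher and 1 lower (25.4% and 20.3% of all). Without CD34+ arrays 1, 3 and 5, 11 were higher and 1 lower (8.87% and 8.65% of all). Leaving out 1 array gave 8 to 10 higher and 0 to 1 lower. The cause of these changes was not tested, and fewer arrays or means leave fewer values to overlap. The pathway calls, 20 higher and 23 lower, were 15 to 28 and 18 to 26 over the alternatives. Whether array numbers pair the fractions cannot be told from these values. Deviations of same-numbered arrays correlated at -0.27 to 0.50, over 0.1 for 4 of 6 numbers. For 3 of 6 CD34+ arrays the CD34- array most like it had the same number. With the number as a replicate block 23 pathway genes were higher and 23 lower. Over all genes the calls were 1454 higher and 3296 lower, 2099 and 2499 after quantile normalization, and 901 and 3801 after median centring, which moved the median over all genes from 0.04 to -0.06.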
